A study of Mus musculus with 6 samples.

Results

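Glycolysis splits glucose into pyruvate in the cytosol, and the citric acid cycle oxidises the acetyl group made from pyruvate inside the mitochondrion. The pyruvate dehydrogenase complex joins the pathways, and its kinases shut it by phosphorylation. Dividing neural precursors and astrocytes are both known for a high rate of glycolysis, and low oxygen raises the transcription of many glycolytic genes through hypoxia-inducible factors. The genes described here are 44 listed by symbol: 21 for glucose uptake, glycolysis and its regulation, 7 for pyruvate dehydrogenase and its kinases, and 16 for the citric acid cycle and pyruvate carboxylase. A gene was measured if the array held a probe set, called a transcript cluster, annotated with that symbol and no other, and the brightest cluster was used where there were several. By this rule 41 of the 44 genes were measured, among 19937 genes in all. Gpi1, Gapdh and Eno1 had no cluster of their own and are not analysed here, Gapdh being named only in 11 clusters that carry several symbols.

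RNA came from primary neurospheres, balls of cells that grow from single hippocampal precursors kept in suspension. The cells were taken from adult male C57BL/6J mice of 8 to 12 weeks, grown with the growth factors EGF and bFGF, and collected on day 14. The N group was grown with 10 μM norepinephrine, the transmitter of noradrenergic neurons, and the K group with 15 mM potassium chloride, which depolarises neurons. Each group has 3 arrays labelled as biological replicates of small neurospheres, no group without either agent was analysed here, and the number of mice behind a replicate is not given. The values are log2 intensities normalized by RMA, so that a difference of 1 is a doubling, and log2FC is the mean of the N arrays minus the mean of the K arrays. A neurosphere holds several kinds of cell, so fewer cells of a type and less RNA per cell cannot be told apart. The 11 measured markers of neural precursors, Nes and Sox2 among them, had a mean of 8.71 to 8.95 on every array, where the array medians were 6.30 to 6.40. Astrocyte markers had means of 8.43 to 9.004, and each gene has its own probes, so these levels do not tell the cell types apart.

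The K arrays were the less uniform group. K replicate 2 correlated with the N arrays at a mean r of 0.969 across clusters and with the other K arrays at 0.954. K replicate 1 was also slightly closer to the N arrays, at 0.955, than to its own group, at 0.954. K replicate 3 had the lowest correlation with its own group, 0.948. With the lowest and highest deciles of clusters set aside, the values spanned 4.85 on K replicate 3 and 4.89 on K replicate 1, and 5.07 to 5.14 on the other 4 arrays. Where leaving out K replicate 3 moved a log2FC by over 1.5 times, the value without it is given as well.

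The differences of the enzyme genes were small and mostly of 1 sign. Of the 41 measured genes, 31 had a positive log2FC, the median was 0.22 and the range ran from -0.38 to 0.78. Of all genes 43.0% were positive and their median was -0.03. The positive genes were 27 of the 41 with quantile and with cyclic loess normalization, with medians of 0.14 and 0.15. Without N replicate 1 they were 26, with a median of 0.19. At an adjusted p under 0.05 (limma with Benjamini-Hochberg adjustment over all genes) 0 of the 41 passed, and the lowest adjusted p among them was 0.246. Over all genes 31 passed, or 0.155%. At an unadjusted P under 0.05, 8 of the 41 passed, or 19.5%, against 8.54% of all genes. These were 6 with more signal under N (4.64% of all genes) and 2 with more under K (3.89% of all genes). The values of 9 genes lay higher on all 3 N arrays than on any K array, a pattern that 5.78% of all genes had, and 2 lay the other way, as 7.55% of all genes did. None had a log2FC over 1 in size, and 0 of the 41 met the rule of the methods for a positive gene (log2FC over 1 in size with P under 0.05), which 0.492% of all genes met. The enzyme genes are brighter than most, with a median level of 8.75 against 6.55 over all genes. With the comparison restricted to clusters above the median intensity, 36 of them remained and 6 passed the unadjusted threshold, or 16.7%, against 10.1% of the genes tested. Of these 36, 27 were positive with a median of 0.22, where the median of the genes tested was 0.01.

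**Figure D1:**
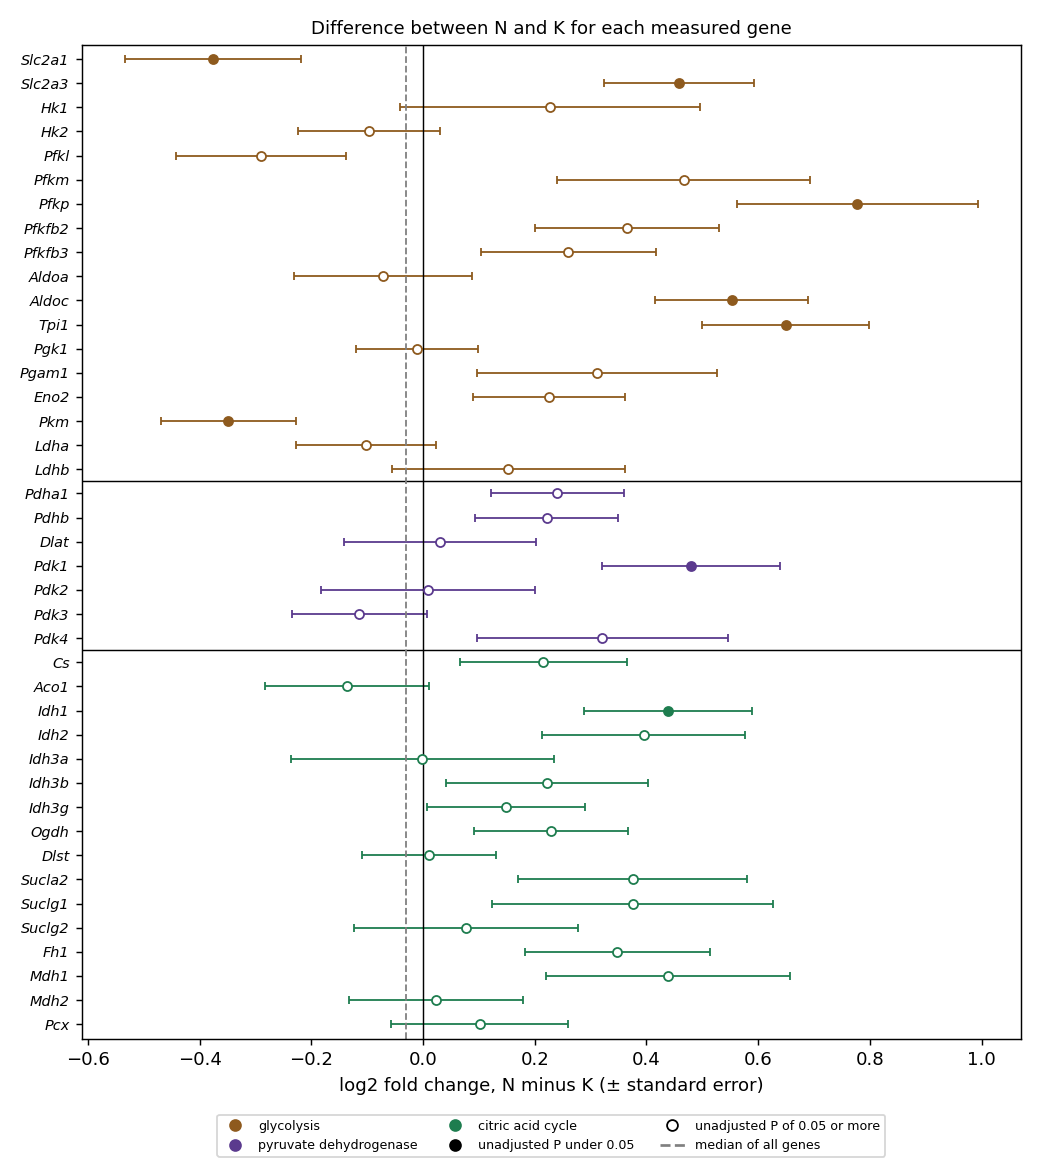
The log2FC of each of the 41 measured genes (N minus K, x axis, with its standard error from limma), in pathway order from glucose uptake at the top to pyruvate carboxylase at the bottom. Filled points mark the 8 genes at an unadjusted P under 0.05 and the dashed line the median of all genes, -0.03. Glycolysis holds both the highest value, 0.78 for Pfkp, and the lowest, -0.38 for Slc2a1, and 14 of the 16 citric acid cycle genes lie above 0.

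The 3 groups of steps had medians of 0.22 to 0.23 with all arrays, but this agreement depended on the arrays used. Without N replicate 1 the medians of glycolysis, pyruvate dehydrogenase and the citric acid cycle were 0.13, 0.19 and 0.19, without N replicate 3 they were 0.24, 0.0995 and 0.24, and without K replicate 3 they were 0.16, 0.15 and 0.08. For glycolysis 11 of 18 measured genes were positive with a median of 0.23. Of the 18, 6 passed the unadjusted threshold, or 33.3%, 4 in the direction of N and 2 in that of K. For pyruvate dehydrogenase 6 of 7 were positive with a median of 0.22, and 1 passed, or 14.3%. For the citric acid cycle 14 of 16 were positive with a median of 0.22, and 1 passed, or 6.25%. Over all genes 8.54% passed that threshold. The 8 measured genes that take hexose phosphate to triose phosphate had a median of 0.42 and 6 of them were positive. The 4 of glucose uptake and phosphorylation had a median of 0.06 (-0.05 without K replicate 3), the 4 measured from triose phosphate to pyruvate had 0.11, and the pair of lactate dehydrogenase genes had 0.02. These medians describe the genes and were not tested against each other.

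The promoters of 4 genes are printed as examples chosen after their values were seen. Tpi1, Pfkp and Pdk1 had more signal under N on every array, as Aldoc did, and Slc2a1 had less. Each is the 150 bases before a RefSeq transcription start in GRCm38.p6, written along the gene's strand, with capitals for the hypoxia core ACGTG or GCGTG on either strand (CACGT or CACGC when read from the other strand). Positions count back from -1, the base before the start.
Tpi1, chr6:124814159-124814308, minus strand: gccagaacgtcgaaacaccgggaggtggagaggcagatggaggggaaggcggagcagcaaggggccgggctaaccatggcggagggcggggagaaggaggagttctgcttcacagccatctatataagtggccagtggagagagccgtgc
Pfkp, chr13:6648772-6648921, minus strand: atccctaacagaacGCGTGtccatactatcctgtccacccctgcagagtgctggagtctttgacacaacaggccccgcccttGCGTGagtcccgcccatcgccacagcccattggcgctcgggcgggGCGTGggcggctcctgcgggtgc
Pdk1, chr2:71873074-71873223, plus strand: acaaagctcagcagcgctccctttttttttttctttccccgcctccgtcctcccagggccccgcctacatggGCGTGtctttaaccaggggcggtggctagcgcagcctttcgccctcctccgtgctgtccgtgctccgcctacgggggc
Slc2a1, chr4:119108595-119108744, plus strand: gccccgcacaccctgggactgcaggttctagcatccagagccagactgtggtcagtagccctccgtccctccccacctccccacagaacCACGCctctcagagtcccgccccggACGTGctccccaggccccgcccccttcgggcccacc
The Tpi1 stretch holds 0 cores, Pdk1 has 1 at -78, Pfkp has 3 at -136, -68 and -23, and Slc2a1 has 2 at -61 and -36. The Pfkp window lies before a start inside the annotated gene, whose far end is at 6649060. Pdk1 is annotated from 71873215, so its start and the last bases of its window also lie inside the annotated gene.

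Over the 250 bases before the start, and counting 1 window per gene, a hypoxia core stood in 28 of the 42 listed genes with a RefSeq window, or 66.7%, and in 38.6% of 27025 promoters. ACGTG was in 35.7% of the listed genes and 16.6% of all promoters, and GCGTG in 47.6% and 28.2%. The palindrome CACGTG holds ACGTG on both strands and counts once per promoter. The cyclic AMP response element TGACGTCA, which contains neither core, stood in 3 of the 42, or 7.14%, and in 1.62% of all promoters. Slc2a3 and Idh3a were not among the 42. The 26 measured genes with a core had a median log2FC of 0.23 with 20 positive, and the 13 without had 0.22 with 10 positive. Both cores and TGACGTCA hold the letters CG, and the listed genes were not set against promoters of like CG content. These shares therefore do not show a feature of low oxygen in particular. A match is a description of the sequence and shows no binding.

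Glucose enters through the transporters encoded by Slc2a1, the general form, and Slc2a3, the high-affinity neuronal form, and their signals lay in opposite directions. Slc2a1 read 7.55, 7.82 and 7.75 on N replicates 1, 2 and 3, and 8.07, 7.84 and 8.35 on K replicates 1, 2 and 3. The groups did not overlap, but their nearest arrays, both replicate 2, differed by only 0.02. The log2FC was -0.38 (standard error 0.16, adjusted p = 0.565), and -0.24 without K replicate 3. Slc2a3 read 6.44, 6.51 and 6.73 with N and 6.03, 6.26 and 6.02 with K. Every N array was above every K array, with a log2FC of 0.46 (standard error 0.13, adjusted p = 0.362). Hexokinase traps glucose as its phosphate. Hk2, the form that growth signals and low oxygen induce, read 6.16, 6.29 and 6.04 with N and 6.28, 6.14 and 6.36 with K, and the groups overlapped (log2FC -0.10, and -0.05 without K replicate 3). The Hk1 cluster gave 0.23 and spread widely in both groups, from 10.9 to 11.7 with N and from 10.6 to 11.4 with K, and without K replicate 3 it gave -0.06. The Slc2a3 and Hk2 clusters are dim, with means of 6.33 and 6.21 where the median over clusters was 6.34.

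Phosphofructokinase commits the sugar to glycolysis, and its 3 subunit genes did not share a direction. Pfkp, the platelet-type subunit, read 7.38, 7.41 and 7.91 with N and 6.47, 7.19 and 6.70 with K. All N arrays were above all K arrays, K replicate 2 coming closest, and the log2FC of 0.78 (standard error 0.22, adjusted p = 0.332) was the highest of the 41, a 1.71-fold difference. Pfkm, the muscle-type subunit, had a log2FC of 0.47 with overlapping groups, in which K replicate 3 was the lowest array at 7.75 (0.20 without it). Pfkl, the liver-type subunit, had -0.29. Pfkfb3 makes fructose 2,6-bisphosphate, the activator of phosphofructokinase, and read 8.07, 7.99 and 8.46 with N and 8.06, 7.78 and 7.90 with K. N replicate 3 stood highest, N replicate 1 lay just above the K group and N replicate 2 inside it (log2FC 0.26). Pfkfb2, which has the same activity, had 0.37.

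Aldolase splits the sugar and triosephosphate isomerase makes both of its products usable, and here lay the smallest P-values of the 41. Tpi1, the isomerase gene, read 9.85, 9.49 and 9.53 with N and 9.005, 9.13 and 8.79 with K. The groups were separated by 0.36, and the log2FC was 0.65 (standard error 0.15, unadjusted P = 0.0021 and adjusted p = 0.246 from limma), a 1.57-fold difference. Aldoc, the aldolase of brain and above all of astrocytes, read 10.26, 9.90 and 10.24 with N and 9.57, 9.65 and 9.52 with K. All 3 N arrays were higher, with a log2FC of 0.55 (standard error 0.14, adjusted p = 0.267). Aldoa, the form found in most tissues, had -0.07 (-0.18 without K replicate 3). Of 16 astrocyte markers measured, 13 were positive and 8 passed the unadjusted threshold, or 50%, against 8.54% of all genes. Their mean level was 8.75 to 9.004 on the N arrays and 8.43 to 8.48 on the K arrays. Gfap, the astrocyte filament gene, was the only 1 of the 16 at an adjusted p under 0.05 (log2FC 1.66, adjusted p = 0.036). The part of astrocyte RNA in the values of Aldoc and the other enzyme genes was not tested.

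In the lower part of glycolysis the K arrays were higher for 1 gene with no overlap. Pkm encodes pyruvate kinase, which makes pyruvate at the last step, and read 10.67, 10.45 and 10.65 with N and 10.91, 10.90 and 11.01 with K. The K arrays spanned 0.12 and all lay above the N arrays, with a log2FC of -0.35 (standard error 0.12, adjusted p = 0.469), or 0.785 of the K level. A second, dimmer Pkm cluster gave -0.22. The array summary does not separate the Pkm1 and Pkm2 splice forms. Pgk1, the first of the ATP-making enzymes, had all 6 arrays between 10.91 and 10.99 and a log2FC of -0.01 (0.01 without K replicate 3). Eno2, the neuronal enolase, had 0.23 and Pgam1, a mutase, 0.31 (0.16 without K replicate 3). The Eno2 cluster is dim, with a mean of 6.00 where the median over clusters was 6.34. Ldha, the lactate dehydrogenase subunit that favours lactate, read 9.74, 9.88 and 10.05 with N and 9.96, 10.05 and 9.97 with K. The groups overlapped, with a log2FC of -0.10, and Ldhb, the subunit that favours pyruvate, had 0.15.

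**Figure D2:**
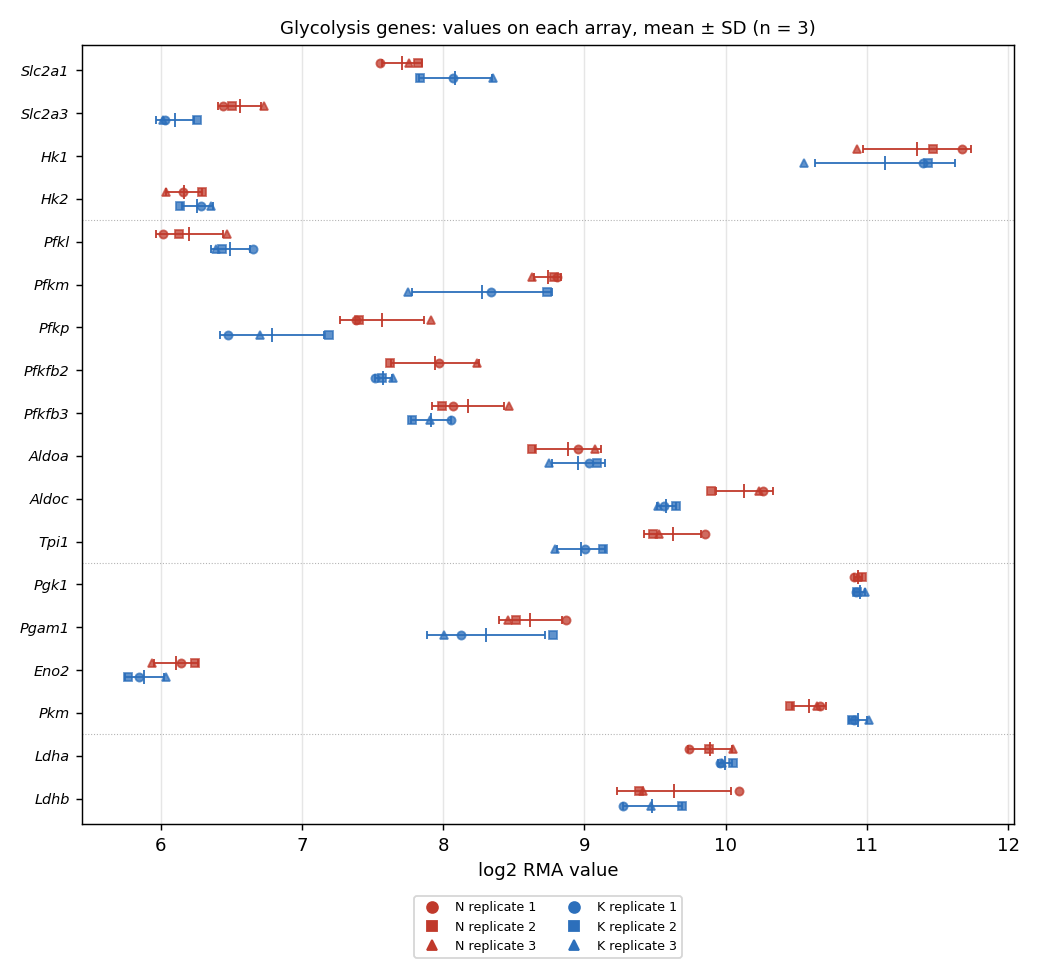
The log2 RMA value of the 18 measured glycolysis genes on each array (x axis), with N in red, K in blue, a marker shape for each replicate number, and the group mean with its SD (n = 3 arrays) as bar and line. The groups do not overlap for Slc2a3, Pfkp, Aldoc and Tpi1, where N is higher, and for Slc2a1 and Pkm, where K is higher. Levels of different genes cannot be compared, since each has its own probes.

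For the pyruvate dehydrogenase complex, the subunit genes had small positive values. Pdha1, the catalytic alpha subunit and the target of the kinases, read 9.90, 9.77 and 9.97 with N and 9.68, 9.70 and 9.54 with K. The groups did not overlap and lay 0.07 apart at their nearest arrays, with a log2FC of 0.24 (standard error 0.12, adjusted p = 0.645). Pdhb, the beta subunit, read 7.79, 7.81 and 7.61 with N and 7.59, 7.59 and 7.36 with K. The gap between the groups was smaller still, and the log2FC was 0.22 (standard error 0.13, adjusted p = 0.696), or 0.14 without K replicate 3. Dlat, the acetyltransferase core, had 0.03 (0.15 without K replicate 3). Of the 4 kinases Pdk1, the form induced by low oxygen, read 6.25, 6.78 and 6.58 with N and 6.12, 5.91 and 6.14 with K. N replicate 1 lay only 0.11 above the highest K array and the other N arrays well above, with a log2FC of 0.48 (standard error 0.16, adjusted p = 0.439), a 1.39-fold difference in a cluster whose mean of 6.29 lies below the median over clusters, 6.34. Pdk4, induced by fasting, had 0.32, Pdk2 0.01 (0.13 without K replicate 3) and Pdk3 -0.11, all with overlapping groups.

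Idh1 and Mdh1 had the largest log2FC of the citric acid cycle list, and both encode cytosolic forms of cycle enzymes rather than the mitochondrial ones. Idh1, which makes NADPH from isocitrate, read 9.64, 9.50 and 9.48 with N and 9.19, 9.30 and 8.82 with K. The groups did not overlap, and the log2FC was 0.44 (standard error 0.15, adjusted p = 0.462), or 0.30 without K replicate 3, where the unadjusted P from limma was 0.053. Mdh1, the malate dehydrogenase of the malate-aspartate shuttle, read 10.67, 10.48 and 10.57 with N and 10.38, 10.43 and 9.59 with K. K replicate 3 was 0.79 below the next array, and without it the log2FC fell from 0.44 to 0.17. Aco1, the cytosolic aconitase and iron sensor, had -0.14, so the cytosolic forms did not share a direction. Of their mitochondrial partners Idh2 had 0.40, and 0.41 without K replicate 3, then the largest of the list. Mdh2 had 0.02, which turned to -0.02 without K replicate 3.

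Cs, citrate synthase, which starts the cycle, read 10.76, 10.66 and 10.69 with N and 10.57, 10.70 and 10.20 with K. The groups overlapped, K replicate 3 being the lowest, and the log2FC of 0.22 became 0.07 without that array. Ogdh, the first subunit of the 2-oxoglutarate dehydrogenase complex, read 9.65, 9.38 and 9.77 with N and 9.43, 9.41 and 9.27 with K. Here N replicate 2 fell among the K arrays (log2FC 0.23). The 8 genes between 2-oxoglutarate and oxaloacetate were all positive with a median of 0.29 over the 6 arrays, and without K replicate 3 the median was 0.11 and 6 were positive. Among them Sucla2 and Suclg1, subunits of succinyl-CoA ligase, had 0.38 each, and 0.15 and 0.07 without that array. Fh1, fumarase, went from 0.35 to 0.21, Suclg2, a further ligase subunit, from 0.08 to -0.15, and Dlst, a subunit of the Ogdh complex, from 0.01 to 0.05. Of the NAD-dependent isocitrate dehydrogenase subunits, Idh3a had 0.00 (-0.28 without K replicate 3), Idh3g 0.15 (0.03) and Idh3b 0.22 (0.25). Pcx, pyruvate carboxylase, which refills the cycle and is used in brain mainly by astrocytes, read 6.46, 6.56 and 6.05 with N and 6.39, 6.16 and 6.24 with K. N replicate 3 was the lowest array and N replicate 2 the highest, with a log2FC of 0.10. The Pcx cluster is dim too, with a mean of 6.31, below the median over clusters of 6.34.

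**Figure D3:**
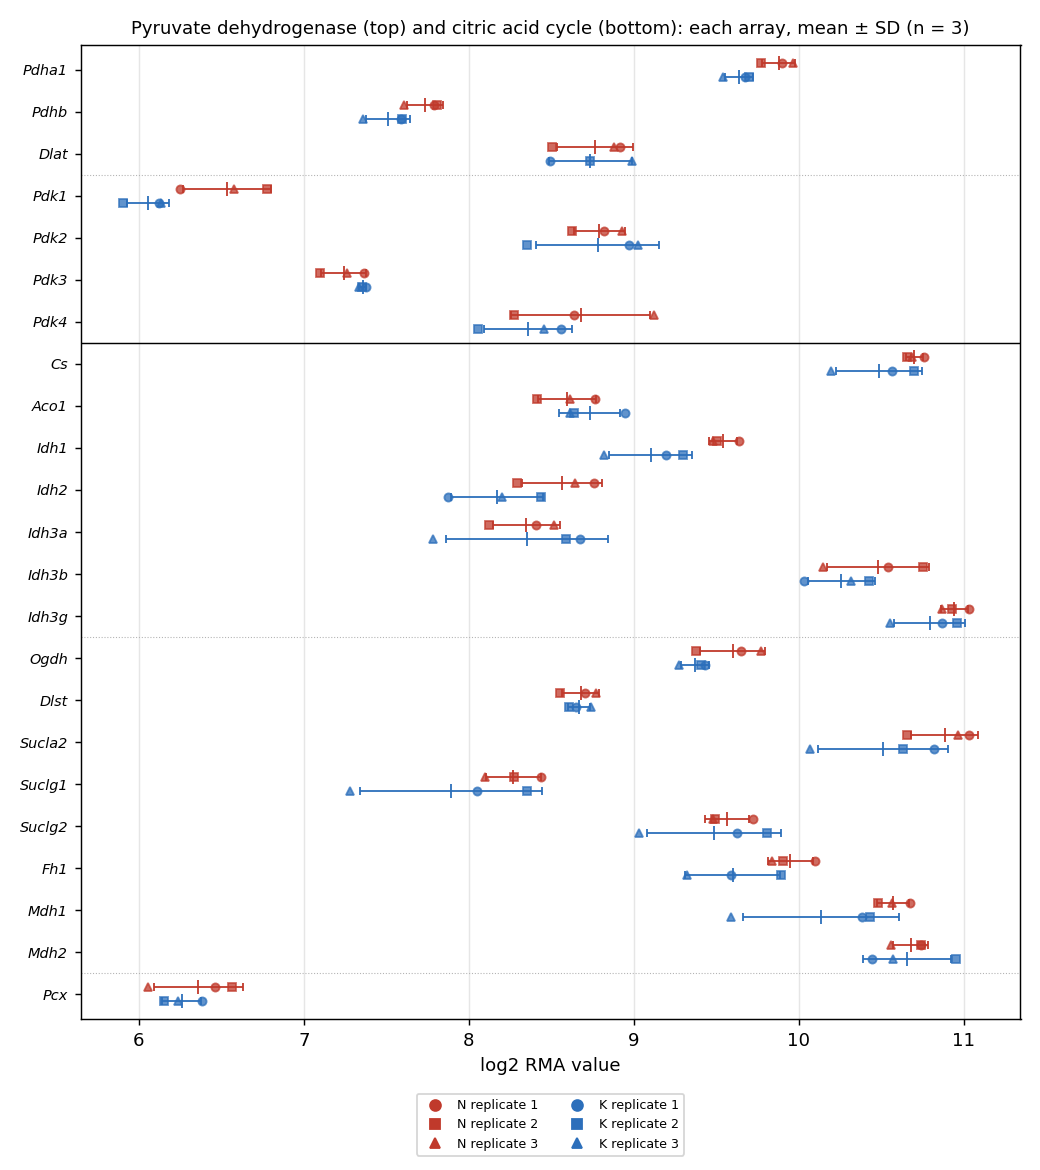
The log2 RMA value on each array (x axis) of the 7 genes of pyruvate dehydrogenase (top) and the 16 of the citric acid cycle and pyruvate carboxylase (bottom), with N in red, K in blue, a marker shape for each replicate number, and the group mean with its SD (n = 3 arrays). K replicate 3, the blue triangle, lies at the low end for Suclg1, Mdh1, Sucla2 and Cs, and the groups do not overlap for Pdha1, Pdhb, Pdk1, Idh1 and Mdh1.

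Most of the citric acid cycle difference rested on a single array. Taking each gene's value minus its mean over the 6 arrays, the median over the 16 genes was 0.17, 0.06 and 0.08 on the N arrays and -0.02, 0.07 and -0.36 on K replicates 1, 2 and 3. K replicate 2 therefore lay inside the N range, and K replicate 3 far below all others. K replicate 3 was the lowest of the 6 arrays for 10 of the 16 genes, or 62.5%, and for 18 of the 41, or 43.9%, against 17.1% of all genes and 25.6% of genes above the median intensity. Without K replicate 3 the citric acid cycle median went from 0.22 to 0.08 with 12 of 16 positive, the glycolysis median from 0.23 to 0.16 and the pyruvate dehydrogenase median from 0.22 to 0.15. The median of all genes then was -0.01, and 6 of the 41 passed the unadjusted threshold, against 7.16% of all genes. Glycolysis depended less on that array: its median deviation was 0.13, 0.03 and 0.11 on the N arrays and -0.08, 0.00 and -0.13 on the K arrays, so the groups did not overlap. For pyruvate dehydrogenase N replicate 2, at -0.16, was the lowest array.

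**Figure D4:**
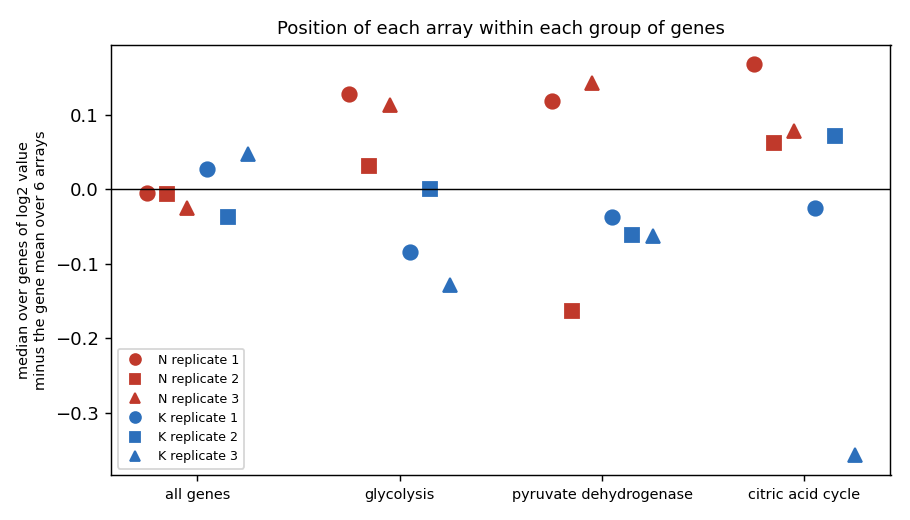
The median over genes of the log2 value minus the gene's mean over 6 arrays (y axis) for each array, over all genes and over the genes of glycolysis, pyruvate dehydrogenase and the citric acid cycle. For the citric acid cycle K replicate 3 lies at -0.36 and K replicate 2 at 0.07, among the N arrays. Over all genes the arrays lie between -0.04 and 0.05.

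Several steps have alternative genes, and the difference between a pair on the same array shows whether both shifted alike. Of 18 pairs listed, 17 could be formed, and for 5 of them, of which 2 share Pdk3, the N and K arrays did not overlap. Among single genes 13.3% did not overlap, and the share among other pairs of genes was not computed. With 3 arrays against 3 an exact two-sided permutation test cannot go below 0.1, the value of all 5, and the adjusted p over the 17 pairs was 0.34. The widest shift was that of Pfkl minus Pfkp, which read -1.37, -1.28 and -1.45 with N and 0.18, -0.76 and -0.31 with K, a shift of -1.07. Slc2a1 minus Slc2a3 read 1.11, 1.31 and 1.02 with N and 2.04, 1.58 and 2.33 with K, a shift of -0.83. Aldoa minus Aldoc read -1.31, -1.27 and -1.16 with N and -0.53, -0.56 and -0.77 with K, a shift of -0.62 with the least spread within groups of the 3. The remaining pairs were Pdk1 minus Pdk3, with a shift of 0.59, and Pdk3 minus Pdk4, with -0.44. The other 12 pairs overlapped, among them Ldha minus Ldhb with a shift of -0.26 and Mdh1 minus Mdh2 with 0.42.

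**Figure D5:**
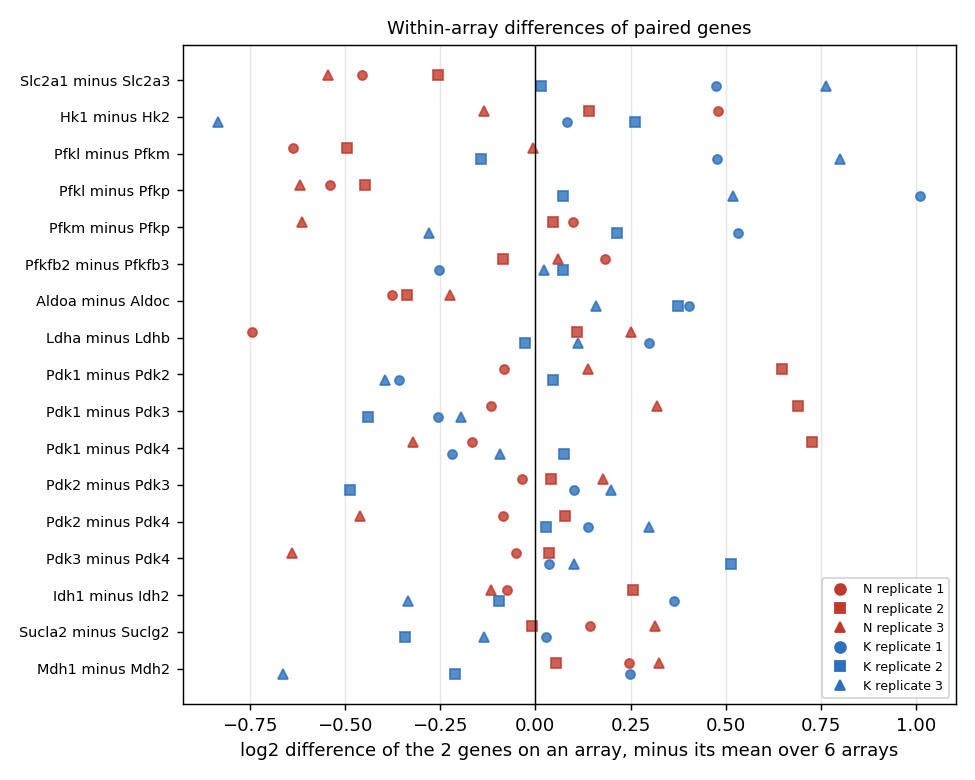
The log2 difference of 2 genes on 1 array, minus its mean over the 6 arrays (x axis), for the 17 pairs, with N in red, K in blue and a marker shape for each replicate number. Red and blue do not overlap for Slc2a1 minus Slc2a3, Pfkl minus Pfkp, Aldoa minus Aldoc, Pdk1 minus Pdk3 and Pdk3 minus Pdk4. The position of a pair shows unequal change only, since the levels of different genes cannot be compared.

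The neighbouring pathway genes outside the list were given by a second list of 56, of which 50 were measured. Of these 4 passed the unadjusted threshold, or 8.00%, a share near the 8.54% of all genes, and 0 passed after adjustment. All 4 had more signal under N, and they are named by the rule for such genes only. Mpc1 encodes a subunit of the carrier that brings pyruvate into the mitochondrion, and read 9.61, 9.75 and 9.25 with N and 8.45, 9.18 and 7.60 with K. The groups came within 0.07 of each other, and K replicates 1 and 3 were far lower, giving a log2FC of 1.13 (standard error 0.35, adjusted p = 0.389), or 0.72 without K replicate 3. The others were the malic enzyme genes Me1 (log2FC 0.42) and Me2 (0.46) and the mitochondrial aspartate aminotransferase gene Got2 (0.37). All 7 measured pyruvate carrier and dehydrogenase partner genes were positive with a median of 0.41, and all 7 of the pentose phosphate pathway with a median of 0.17. Without K replicate 3 these medians were 0.28 and 0.05, with 7 and 6 positive. The 15 partners of the citric acid cycle and the malate-aspartate shuttle had a median of 0.13 (0.24 without that array). The 21 further glycolysis isoforms and regulators, most of them dim, had a median of -0.04 with 6 positive (0.02 with 13 positive without it).

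Of 15 genes outside glycolysis that low oxygen induces, 12 were positive and their median was 0.06. The groups did not overlap for 3, all with more signal under N, a pattern that 5.78% of all genes had. The 1 that passed the unadjusted threshold was Bnip3, with a log2FC of 1.35 (adjusted p = 0.119). Its cluster stands among those of chromosome 14 although the gene lies on chromosome 7, and the cluster among those of chromosome 7 gave 0.42. In that second cluster the groups overlapped, N replicate 1 being at 7.68 and K replicate 3 at 7.75. The mean level of the 15 was 7.81 to 7.96 on the N arrays and 7.65 to 7.76 on the K arrays, without overlap. That mean includes Bnip3, which read 8.45, 8.72 and 8.36 with N and 6.58, 7.64 and 7.24 with K. With Bnip3 left out, the N and K means overlapped. Each gene's value minus its mean over all arrays was also taken. The median of these over the 15 was -0.025, 0.148 and 0.060 on N replicates 1, 2 and 3. On K replicates 1, 2 and 3 it was -0.042, -0.004 and -0.022, so by this measure the groups overlapped. The part of the 15 genes in the values of Pdk1, Slc2a3 and Tpi1 was not tested. For other cells a neurosphere can hold, neuronal markers had a median of 0.07 (16 measured, 4 passing), oligodendrocyte lineage markers -0.13 (10 measured, 0 passing), microglial markers -0.14 (10 measured, 0 passing) and endothelial markers -0.05 (8 measured, 0 passing). Of 13 cell cycle genes 3 passed, all with more signal under K. Of 11 precursor markers 3 passed, 2 with more under N and 1, Nes, with more under K (log2FC -0.53). Over all genes 8.54% passed this threshold.

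For 4 of the 41 genes the cluster used may read another place in the genome. By cluster number, 97.2% of the clusters that could be placed stand among clusters of their own gene's chromosome. The clusters used for Hk1, Ldhb, Suclg2 and Pgam1 stand among those of chromosomes 14, 19, X and 7, while the genes lie on chromosomes 10, 6, 6 and 19. Which locus their probes match is not given in the sources used here. Hk1, Ldhb and Suclg2 have a second, dimmer cluster among those of the gene's own chromosome, with log2FC of -0.09, 0.20 and -0.05, so that Hk1 and Suclg2 change sign. Pgam1 has no other cluster, and neither has Mpc1, whose cluster stands among those of chromosome 12 although the gene lies on chromosome 17. With such clusters left out, 40 genes remained, 8 passed the unadjusted threshold as before, and the medians of glycolysis, pyruvate dehydrogenase and the citric acid cycle were 0.20, 0.22 and 0.22. Positive genes then were 28 of the 40, where they had been 31 of the 41. In the citric acid cycle they were 13 of 16, where they had been 14.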

How the data were processed

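The authors extracted total RNA, made cDNA with NuGEN kits, hybridised it to Affymetrix Mouse Gene 1.0 ST arrays and, per the labels, used Partek and RMA. The deposited values are log2 RMA intensities of 34760 transcript clusters. Versions and settings are not given in the sources used here. Of these clusters 21640 carry exactly 1 gene symbol, 1321 several and 11799 none in the platform annotation, and the 21640 were reduced to 19937 genes by the highest mean over all 6 arrays. All 41 measured genes matched RefSeq (GRCm38.p6) by gene ID.

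The fit used lmFit and eBayes of limma (version 3.58.1, under R 4.3.3) with the group as its only term, which left 4 residual degrees of freedom beside 4.59 prior ones. P-values measure the spread between 3 arrays per group, which limits the precision. The fit was tested on simulated data. Pairs of genes were compared by exact permutation tests, and promoters were searched for letters in RefSeq windows.

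The 44 genes and all lists were chosen with earlier results of these data known. Every array is given for genes with an unadjusted P under 0.05 or with groups that do not overlap, and for Hk2, Pfkfb3, Pkm, Ldha, Pdk1, Pdha1, Cs, Idh1, Ogdh and Pcx whatever their values. Other pathway genes are named where P was under 0.05. Alternatives were the replicate number as a block, an ordinary linear model, eBayes with trend and robust, clusters above the median intensity, quantile, median and cyclic loess normalization, the mean of a gene's clusters and each array left out in turn. Clusters on the gene's own chromosome, and leaving out K replicate 3 with cyclic loess, were added after seeing the data. Plots came from matplotlib 3.10.9 (Python 3.11.15).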

Additional observations from a re-analysis of the deposited data

How the results depend on the processing

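With 3 arrays per group the precision is low, and no enzyme gene passed an adjusted p under 0.05 in limma in the fit reported or in any of the 16 alternatives, the lowest adjusted p being 0.127, without K replicate 2. The number of all genes at an adjusted p under 0.05 was 31, and 1 with an ordinary linear model, 12 with quantile, 3 with median and 12 with cyclic loess normalization. With arrays left out in turn it was 0 to 21: leaving out N replicate 1, then N replicate 2, then K replicate 1 each gave 0 in limma (with 1251, 1274 and 1334 genes at an unadjusted P under 0.05), and leaving out N replicate 3 gave 4, K replicate 2 gave 21 and K replicate 3 gave 9. It was 7 without K replicate 3 with cyclic loess. The genes at an unadjusted P under 0.05 were then 1251 to 2912. The enzyme genes at that threshold were 6 to 13 instead of 8, with 13 without K replicate 2, against 14.6% of all genes. The glycolysis median was 0.13 to 0.24 (0.13 when N replicate 1 was left out, 0.16 for K replicate 3), and 0.14 without K replicate 3 with cyclic loess. The pyruvate dehydrogenase median was 0.0995 to 0.26 (0.0995 without N replicate 3), and that of the citric acid cycle 0.08 to 0.28. With clusters above the median intensity the pyruvate dehydrogenase median was 0.13. The citric acid cycle median was 0.13 with quantile and 0.14 with cyclic loess normalization. Pairs without overlap were 3 instead of 5 with clusters above the median intensity, and 6 to 8 with an array left out (8 without K replicate 2). Other pathway genes at the unadjusted threshold were 2 instead of 4 with an ordinary linear model, and 3 to 7 with an array left out (7 without K replicate 2). Of the 8 enzyme genes at an unadjusted P under 0.05, Tpi1, Pfkp, Aldoc and Slc2a3 stayed under it with each array left out. Idh1 did not without N replicate 1 or K replicate 3, Pdk1 without N replicate 2 or K replicate 2, Pkm without N replicate 2, and Slc2a1 with any array left out but K replicate 2. For the 17 genes given on every array, 267 of 268 log2FC values under the alternatives kept their direction. Many of these could not change. The replicate block, the ordinary linear model and eBayes with trend and robust leave every log2FC as it is. So do clusters above the median intensity and clusters on the gene's own chromosome for those of the 17 they keep. Pcx, at 0.10, ranged from -0.000306 without N replicate 2 to 0.25 without N replicate 3.

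The deviations of samples with the same replicate number from their group means correlated only weakly (r = 0.04, 0.04 and 0.12). The numbers were not taken to pair them, though with 3 arrays per group this check cannot exclude a pairing. With the replicate number as a block, 41 genes passed the adjusted and 1874 the unadjusted threshold, and 10 of the 41 enzyme genes passed the unadjusted and 0 the adjusted one. Arrays of replicates 2 and 3 correlated best with their own number, and those of replicate 1 did not.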
